A study of Drosophila melanogaster with 3 samples.

Results

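The peaks described here are binding sites of the protein CG34224 whose summit lies on or beside a complete DNA replication-related element (DRE), the palindrome TATCGATA. They were chosen by sequence: a peak of the authors' conservative list was kept when an exact copy of these 8 bases lay within 50 bp of its summit on either side, a stretch called the window below. Of 4393 conservative peaks on the main chromosome arms, 625 were kept, or 14.2% (95% Wilson interval 13.2 to 15.3, counting error only). The protein was located by chromatin immunoprecipitation and sequencing (ChIP-seq) in whole Drosophila melanogaster embryos of 0 to 24 hours, from a transgenic strain carrying a CG34224-eGFP fusion that was precipitated through its GFP tag. All 3 libraries form 1 group, with biological replicate numbers 1, 2 and 3 in the labels, and whole embryos mix every tissue and stage. The fusion is a transgene, and a control experiment named in the labels was not analysed here. Only peak lists were used, so the read depth behind a value is unknown. The list of replicate 1 held 2667 peaks, that of replicate 2 held 2841 and that of replicate 3 held 4145, and the greater length of the last bears on every share given per replicate.

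The DRE is a core promoter element of genes used in dividing and growing cells. It is bound by Dref, a zinc finger protein that acts with the TATA-binding-protein-related factor Trf2, and it was first described at the genes of DNA polymerase alpha and of PCNA, the sliding clamp of the replication fork. Part of the palindrome, CGATA, is also the core of the sequence bound by the insulator protein BEAF-32, so the letters alone do not say which protein binds them.

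The sequences below show the element in place, at the strongest peaks that hold it, at peaks with a pair of copies, at distal peaks and at long-known Dref targets. All are the plus strand of dm6 (Release 6, sequence from RefSeq), written 5′ to 3′ with each exact DRE in capitals. Windows that touch an annotated untranslated region are cut to 30 bases around the copy, and the others are the full window. PolA2 is named here by its own start site, although that of CG31064 is nearer to the summit.
Creld, chr2L:102374-102403: atgtttttattTATCGATAgtgtcggcttt
CG11885, chr2L:421445-421474: catcgatgtttTATCGATAgtcattatgca
Hsp110, chr3L:14036930-14036959: caattttgcacTATCGATAaatgtcgcaaa
CtsF, chr3R:5251783-5251812: cgctcggtaagTATCGATAgccttggattt
Nrg, chrX:8517183-8517283: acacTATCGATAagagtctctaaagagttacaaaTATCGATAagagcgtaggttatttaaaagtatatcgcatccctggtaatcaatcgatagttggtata
CkIIalpha-i1, chr3L:15816933-15816962: tgTATCGATAaattaaacatcTATCGATAg
ey (distal), chr4:696868-696968: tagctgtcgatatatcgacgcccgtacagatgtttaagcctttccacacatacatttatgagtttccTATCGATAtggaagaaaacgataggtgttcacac
CG42709 (distal), chr3L:12794666-12794766: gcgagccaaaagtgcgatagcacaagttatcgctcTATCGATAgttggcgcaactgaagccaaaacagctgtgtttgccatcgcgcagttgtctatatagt
PolA1, chr3R:21671789-21671889: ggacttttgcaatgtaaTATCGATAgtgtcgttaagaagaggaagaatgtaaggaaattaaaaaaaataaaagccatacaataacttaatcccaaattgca
Cat, chr3L:18822501-18822601: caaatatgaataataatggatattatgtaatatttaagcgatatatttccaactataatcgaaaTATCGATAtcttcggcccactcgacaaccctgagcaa
PolA2, chr3R:27239136-27239165: ctgactatgctTATCGATAagaaaactcaa
wts, chr3R:30806657-30806686: accacatcaggTATCGATAggatttgaccg

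DRE peaks lay mostly at promoters. Of the 625, 594 had their summit within 500 bp of an annotated start site, and for 591 of these it was the start site of a protein-coding gene. The DRE was present in 15.7% of the 3779 promoter peaks and in 5.05% of the 614 distal peaks of the list. Most DRE peaks, 583, held 1 copy in the window and 42 held 2, which makes 667 copies in all. For scale at promoters, 4.48% of 19275 windows of the same length centred on protein-coding start sites held a DRE, whether or not a peak was there. These windows are not placed as those of the peaks, whose summits stood at a median of -32 bp, upstream of the start site, in both promoter classes. No such share was computed for distal sequence.

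Copies were spread over the window around the summit and lay mostly upstream of the start site. The rule admits no copy centred more than 46.5 bp from the summit, so the distances to the summit, and with them those to the start site, are bounded by it and are given as a description. The centre of the nearest copy was a median of 19.5 bp from the conservative summit (quartiles 10.5 and 31.5 bp), and 18.5, 19.5 and 19.5 bp from the summits of replicates 1, 2 and 3. Copies were found on both sides of the summit, 273 upstream and 318 downstream in the direction of the gene. Relative to the start site the median position was -31.5 bp (quartiles -53.5 and -7.5 bp, 591 peaks), with 83.1% of copies upstream and 92.7% within 100 bp on either side. In the replicate lists the median position was -29.5, -27.5 and -30.5 bp, or -29.2 ± 1.53 bp (SD, n = 3). The summit itself stood at a median of -32 bp in DRE peaks and at -32 bp in promoter peaks without a DRE, while 81.9% of the summits of DRE peaks and 64.5% of those of promoter peaks without one were upstream.

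**Figure D1:**
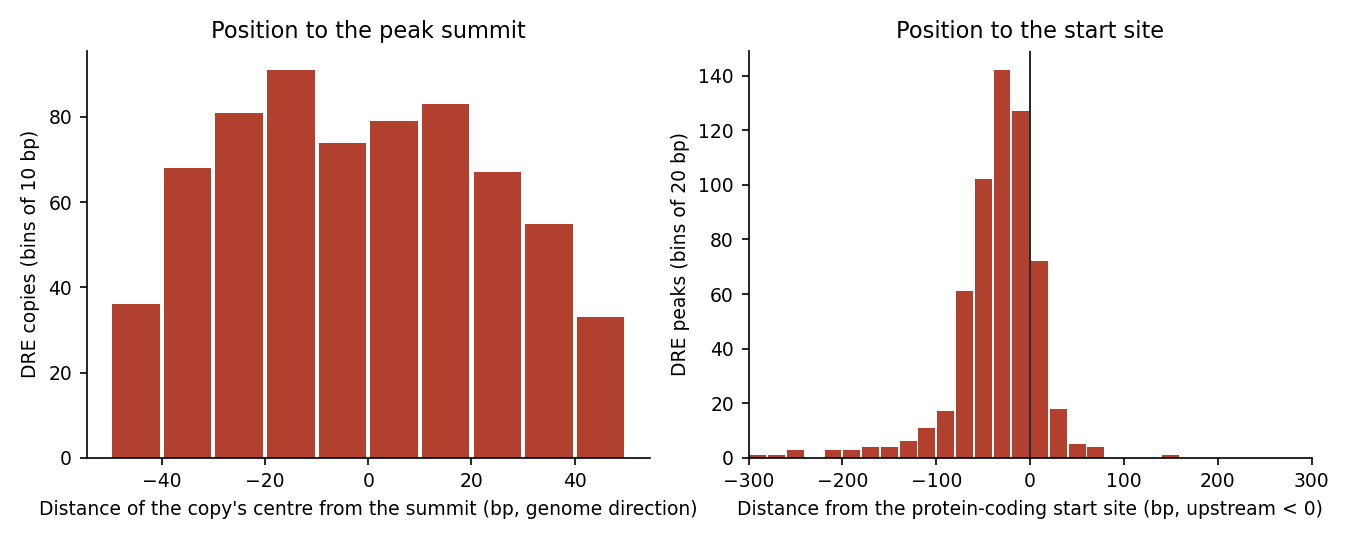
Position of the DRE in the conservative peaks that hold it. Left, the number of DRE copies by distance of the copy's centre from the peak summit, in bins of 10 bp (667 copies, from 33 to 91 a bin); the outermost bins (36 and 33) are cut short by the rule, since no centre can lie beyond 46.5 bp. Right, the number of DRE peaks by distance of the copy nearest the summit from the protein-coding start site, in bins of 20 bp with upstream positions below 0, shown out to 300 bp; the fullest bin, from -40 to -20 bp, holds 142 of 591 peaks.

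Pairs of copies were spaced without a common distance. In the 42 peaks with 2 copies the starts lay 6 to 84 bp apart, with a median of 23 bp, and no spacing occurred more than 4 times. The spacing seen 4 times was 6 bp, at which the copies share their outer bases. In 23 of the 42 the copies flanked the summit. Nrg, a cell adhesion molecule, carried its copies at -182.5 and -152.5 bp from the start site, farther upstream than most, and had signals of 413, 431 and 658 in replicates 1, 2 and 3. CkIIalpha-i1, an interactor of casein kinase II, held copies at -40.5 and -21.5 bp, with signals of 230, 240 and 492 in the same order. The 4 other strongest peaks with 2 copies belonged to CG6325, spin (a lysosomal transporter), eIF2gamma (a subunit of the factor that delivers the initiator tRNA) and snama. The median signal percentile of peaks with 2 or more copies was 74.1, 70.5 and 83.7 in replicates 1, 2 and 3, against 67.2, 67.2 and 75.7 for peaks with 1 copy, a difference of 6.06 ± 2.41 percentile points (SD, n = 3), in the same direction in 3 of 3 replicates. The peaks with more than 1 copy were few, 35, 37 and 43.

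Peaks with a DRE had higher signal than promoter peaks without one. Signal is the peak caller's value deposited by the authors, and it can be compared within a list only, so it was turned into a percentile of its list. The median percentile was 67.8 for 533 DRE peaks against 47.1 for 1913 promoter peaks without a DRE in replicate 1. It was 67.4 for 535 DRE peaks against 46.9 for 2079 in replicate 2, and 76.3 for 573 DRE peaks against 48.4 for 3024 in replicate 3. DRE peaks were thus higher in 3 of 3 replicates, by 23.0 ± 4.23 percentile points (SD, n = 3; exact sign-flip permutation test over replicates, two-sided, p = 0.25). That p is the smallest that 3 replicates allow, so none of the tests over replicates here can pass 0.05. As the authors' signal values, the medians were 119, 114 and 194 for DRE peaks and 86.4, 81.7 and 115 for promoter peaks without a DRE. Within the upper 50% of each list by signal the difference was 2.37 percentile points.

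A DRE in the window was common among strong peaks and rare among weak ones. In the conservative list 1.59% of the weakest 10% of peaks and 31.0% of the strongest 10% held a DRE. Replicates 1, 2 and 3 had 4.12%, 3.86% and 2.65% in their weakest 10% and 30.8%, 28.9% and 29.95% in their strongest. Over the upper 30% of peaks, in steps of 10%, all 4 lists stayed between 24.6% and 31.9%. Of the top peaks by signal, 4 of the 20 strongest, 29 of the 100 strongest and 152 of the 500 strongest conservative peaks were DRE peaks. Another 410 conservative peaks held a copy inside the listed peak but outside the window, and count here as peaks without a DRE. Their median signal was 276 and their median width 536 bp. How far they move the shares by signal was not tested. The median width was 315 bp for DRE peaks against 536 bp for promoter peaks without one. Among DRE peaks too, the weaker ones were mostly of a single width close to 536 bp. The gap in width was therefore not separated from the gap in signal.

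**Figure D2:**
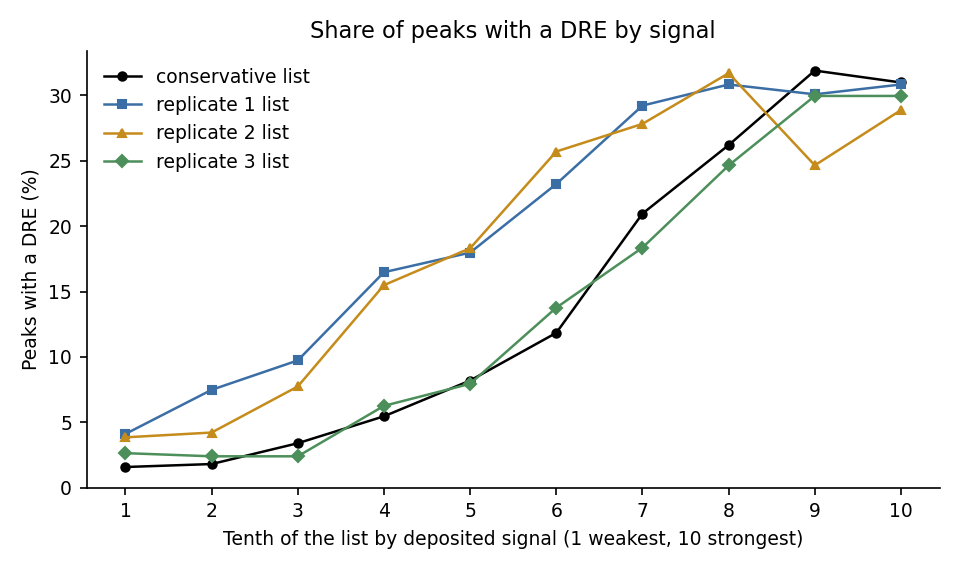
Share of peaks with a DRE in the summit window (y axis, percent) by step of 10% of each list in order of deposited signal (x axis, weakest to strongest), for the conservative list and the lists of the 3 replicates. The lists run from 1.59% to 4.12% in the weakest step to 28.9% to 31.0% in the strongest, and stay between 24.6% and 31.9% over the last 3 steps.

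Replicates recovered DRE peaks more fully. Replicate lists held 84.2%, 88.3% and 95.7% of the 625 conservative DRE peaks in replicates 1, 2 and 3, against 56.95%, 62.1% and 80.9% of the 3185 conservative promoter peaks without a DRE. A peak counted as recovered when it overlapped a replicate peak by at least 50% of the shorter. The difference was 22.7 ± 6.92 percentage points (SD, n = 3; exact sign-flip permutation test, two-sided, p = 0.25), and it was higher for DRE peaks in 3 of 3 replicates. All 3 replicate lists held 491 DRE peaks (78.6%, Wilson 75.2 to 81.6) and 1479 promoter peaks without a DRE (46.4%, Wilson 44.7 to 48.2), beside 51.6% of all 3779 promoter peaks. Just 12 DRE peaks (1.92%) were in none of the 3 lists, against 397 promoter peaks without a DRE (12.5%). The conservative list derives from the same libraries, so recovery is no independent check of a peak.

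Recovery was highest among the strongest peaks. In the upper 25% of the conservative list by signal, 99.1% of 333 DRE peaks and 97.3% of 736 promoter peaks without a DRE were in all 3 replicate lists. In the next 25% the shares were 70.3% of 202 DRE peaks and 60.7% of 798 peaks without a DRE. In the 25% below it they were 17.6% of 68 DRE peaks and 14.9% of 839 without, where replicate 1 held 30.9% of the DRE peaks and 33.3% of the others. In the weakest 25% they were 31.8% of 22 DRE peaks and 18.97% of 812 without, in both classes more than in the 25% above. Some weak conservative peaks overlap strong replicate peaks, which the overlap rule counts as recovery. The peak of CG12016, with a conservative signal of 35.8, overlaps peaks of rank 184, 361 and 343 in replicates 1, 2 and 3. Of all DRE peaks, 85.6% fell in the upper 50% of the list by signal. The recovery difference was 4.33 percentage points within that upper 50%, and 1.49 when the longer ranked lists were used in place of the thresholded ones, in which 98.9% to 99.8% of DRE peaks and 97.2% to 98.7% of promoter peaks without a DRE were found.

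**Figure D3:**
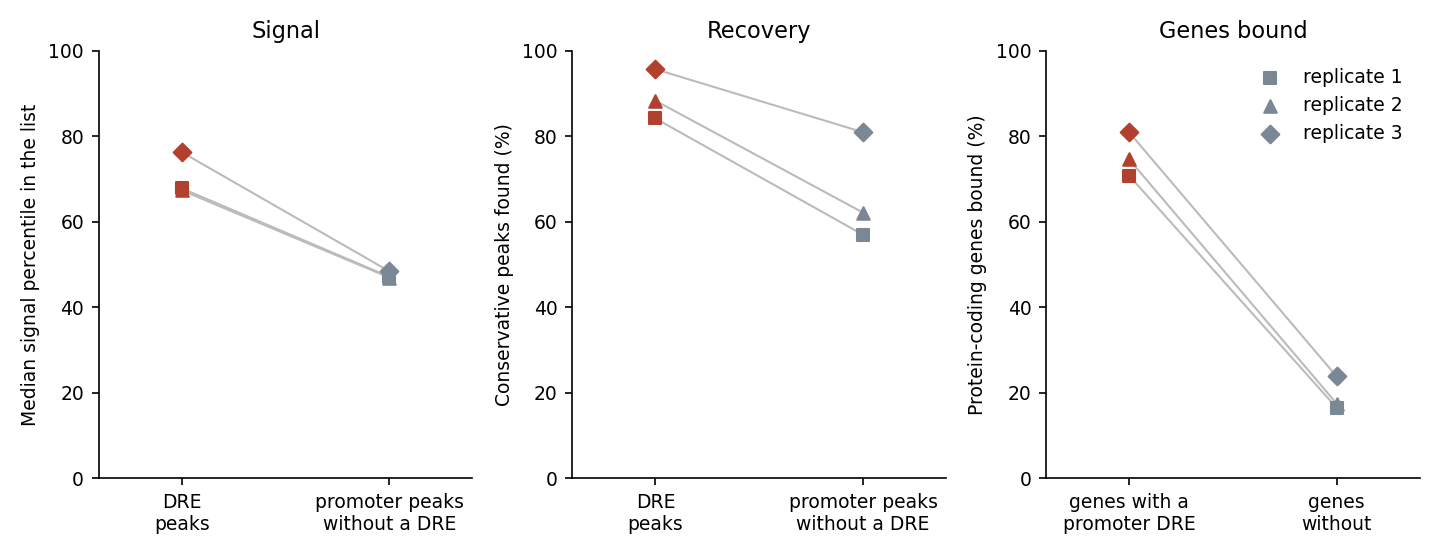
DRE peaks against promoter peaks without a DRE, and genes with a promoter DRE against genes without one, in each replicate. Points are single replicates (squares, triangles and diamonds for replicates 1, 2 and 3) and lines join the values of 1 replicate; the y axes give the median signal percentile within the replicate's list, the percent of conservative peaks found in that list, and the percent of protein-coding genes with a summit within 500 bp. In all 3 panels the value with the DRE is higher in every replicate, by 23.0, 22.7 and 56.2 points on average.

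The 20 strongest DRE peaks belonged to genes of varied function. Their conservative signals ran from 2133 to 1006, all 20 were found in every replicate list, no replicate rank was below 147, and 19 summits lay upstream of the nearest protein-coding start site. Creld, an endoplasmic reticulum protein with EGF-like repeats, led with signals of 608, 585 and 968 in replicates 1, 2 and 3. Its copy lay at 8.5 bp, just inside the transcribed sequence. Pym, which takes exon junction complexes off mRNA, had 427, 361 and 753 in the same order, with its copy at 4.5 bp. At hts, the adducin of the membrane skeleton, the signals were 371, 383 and 680, and the copy at -95.5 bp sat 0.5 bp from the summit. Hsp110, a chaperone, had 341, 289 and 489 with its copy at -74.5 bp. Across these genes the copy was found from the first transcribed bases to nearly 100 bp upstream, with those of Nrg beyond that.

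The others span metabolism, transport and gene expression. CtsF encodes a lysosomal cysteine protease (signals of 297, 316 and 546), Scsalpha1 a subunit of succinyl-CoA synthetase (314, 287 and 575) and Atg14 a component of the autophagy lipid kinase complex (311, 286 and 548). The translation factor gene eIF3f1 had 302, 271 and 455, and the complex I gene ND-B14.5A had 279, 279 and 517. A single peak served Vps16A, a vesicle tethering protein, and the tryptophanyl-tRNA synthetase gene TrpRS, with 266, 268 and 532 and the copy 0.5 bp from the summit. The remaining members of the 20 were CG6325, CG11885, CG9175, IntS8 (a subunit of the Integrator complex), Cul4 (a cullin of ubiquitin ligases), Rab30 (a small GTPase), Pep, prg and CG3732. In 6 of the 20 a further protein-coding gene had a start site within 500 bp.

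Copies continued across the edge of the window. Ubc4, Upf1 and galla-1 had their single copy 46.5 bp from the summit, the farthest the window admits, with conservative signals of 524, 519 and 505. The peaks of ref(2)P, Rab35 and CG4101 had theirs 47.5 bp away, just outside, with signals of 753, 622 and 524. In all, 410 further conservative peaks held a copy inside the listed peak but outside the window, at a median of 99.5 bp from the summit. Their median signal was 276, beside 405 for DRE peaks and 221 for promoter peaks without a DRE, a class that contains most of them. Replicates 1, 2 and 3 held 72.2%, 82.0% and 90.7% of these 410. The number of DRE peaks was 345 with a window of 25 bp on either side and 1031 when the whole listed peak was searched.

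Seen from the genome, a DRE at a start site was usually in a conservative peak and a DRE elsewhere usually was not. The main arms hold 4157 copies, of which 1066 (25.6%) lay inside a conservative peak, and they were classed by distance from protein-coding start sites. Of the 1156 copies at most 100 bp from such a start site, 76.7% were in a peak (Wilson 74.2 to 79.1), with 62.8%, 67.8% and 72.3% in the peaks of replicates 1, 2 and 3. Beyond that and up to 500 bp the share was 34.6% of 353 copies, with 25.2%, 29.5% and 35.1% in the replicates. Farther away it was 2.15% of 2648 copies, with 1.55%, 1.59% and 1.85%. The longer ranked lists held 9.78%, 8.35% and 16.4% of these far copies, against 85.9%, 87.5% and 87.5% of those at most 100 bp away. How much of all sequence in each class lies in peaks was not measured, so these shares have no background beside them. The order of the 3 classes was the same in each replicate, and the gaps were larger than the spread between replicates.

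The share in peaks was uneven around the start site. It was 80.6% of 645 copies in the 50 bp upstream and 80.1% of 206 copies in the 50 bp downstream, but 27.3% of 22 copies from 50 to 100 bp downstream (Wilson 13.2 to 48.2). Upstream it declined more slowly, to 69.3% of 283 copies between 50 and 100 bp, 63.1% of 65 between 100 and 150 bp and 57.4% of 47 between 150 and 200 bp. Between 200 and 500 bp upstream the highest bin of 50 bp had 38.9% of 18 copies.

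**Figure D4:**
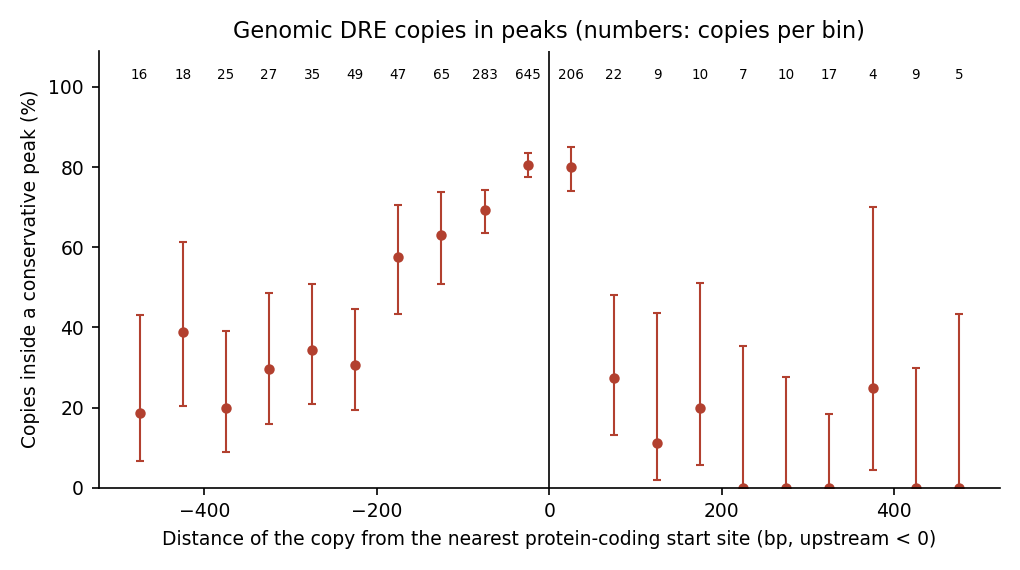
Percent of genomic DRE copies that lie inside a conservative peak (y axis) by distance from the nearest protein-coding start site (x axis, bins of 50 bp, upstream below 0). Bars are 95% Wilson intervals for counting error and the figures along the top give the copies per bin, several of them under 20; the share is about 80% in the bins on either side of the start site and lower at every other distance.

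Genes with a promoter DRE were mostly bound. A gene counted as having one when a copy lay wholly within 100 bp of a start site, and as bound when a summit lay within 500 bp. In the conservative list 976 of 1185 genes with a promoter DRE were bound (82.4%, Wilson 80.1 to 84.4), against 3177 of 12783 genes without (24.9%, Wilson 24.1 to 25.6) and 29.7% of all 13968 protein-coding genes. The shares were 70.8%, 74.6% and 80.9% in replicates 1, 2 and 3 for genes with a promoter DRE, and 16.4%, 17.4% and 23.8% for genes without. The difference was 56.2 ± 1.62 percentage points (SD, n = 3; exact sign-flip permutation test, two-sided, p = 0.25), in the same direction in 3 of 3 replicates and many times the spread between them. With 1 copy 81.9% of 1103 genes were bound, with 2 copies 88.3% of 77 (Wilson 79.3 to 93.7), and all 5 genes with 3 or more copies were bound. The Wilson intervals of 1 and 2 copies overlap.

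The conservative summit of a bound gene was not always at the element. Of the 976 bound genes with a promoter DRE, 652 had a DRE peak and 324 were bound only by peaks with no copy in the window. Counting all genes, 826 had a DRE peak within 500 bp of a start site, which is 5.91% of protein-coding genes and 19.9% of the bound ones.

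A minority of promoter DREs had no peak. Among 209 unbound genes with a promoter DRE, 39 (18.7%) had a summit in at least 1 thresholded replicate list, against 5.84% of 9606 unbound genes without one. No unbound gene had more than 2 copies and 9 had 2, of which AlkB, CG10324, CG2310 and CG33914 are the first 4 by symbol. CG2310 had a summit in the thresholded lists of replicates 2 and 3 and AlkB in that of replicate 2, while CG10324 and CG33914 had none in any of them. In the ranked lists, which hold weaker peaks as well, AlkB, CG10324 and CG2310 had a summit in all 3 replicates and CG33914 in replicates 1 and 2. Such summits were common. They were present at 64.1%, 65.1% and 71.3% of the 209 genes in replicates 1, 2 and 3. Unbound genes without a promoter DRE had them at 45.4%, 42.1% and 56.8%.

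Near matches were counted in genes with no exact copy. Of 2209 such genes with at least 1 copy carrying a single substitution within 100 bp of a start site, 52.0% were bound (Wilson 49.9 to 54.1), against 82.4% of genes with an exact copy and 19.2% of 10574 genes with neither. Per replicate the shares were 41.1%, 42.1% and 51.02% for 1 substitution, 70.8%, 74.6% and 80.9% for an exact copy, and 11.3%, 12.3% and 18.1% for neither. The order held in each replicate.

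Bound shares differed with the letter that was changed. Positions are counted from 1 at the 5′ end of the palindrome, on the strand that puts the change in its first 4 bases, and the palindrome's base is given first. Genes with T1C were bound in 75.9% of 398 cases (Wilson 71.4 to 79.8), with 70.4%, 71.9% and 75.9% in replicates 1, 2 and 3. That is 2.75 ± 2.30 percentage points below the exact copy over the replicates (SD, n = 3), a gap close to its own spread but in the same direction in 3 of 3. In the conservative list the Wilson interval of T1C lies below that of the exact copy, 80.1 to 84.4. T1A followed with 67.6% of 704 genes, 14.1 ± 1.21 points below the exact copy. Substitutions at positions 2 and 3, and T1G, left 43.7% to 58.6% bound. A change of the central CG gave the lowest shares, with 30% of 150 genes for C4A, 26.8% of 190 for C4T and 20.6% of 63 for C4G. The Wilson intervals of C4A, 23.2 to 37.8, and C4T, 21.0 to 33.6, lie above the 19.2% of genes with neither match, and that of C4G, 12.5 to 32.2, includes it. A gene can hold several near matches and then counts in several of these 12 classes. The letters CGATA are kept by every change at positions 1 to 3 and lost by those at position 4.

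**Figure D5:**
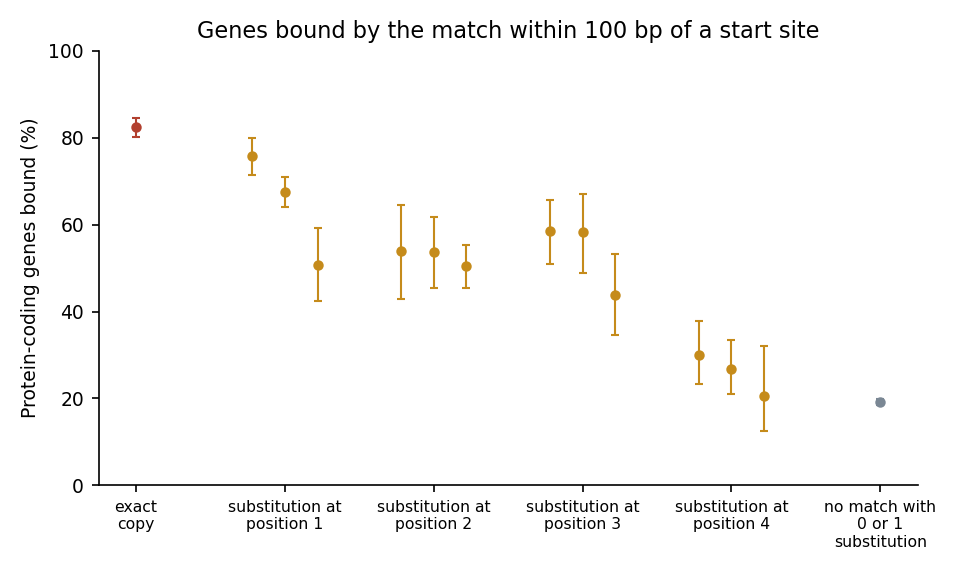
Percent of protein-coding genes bound in the conservative list (y axis) by the match within 100 bp of a start site: an exact DRE, genes with no exact copy but 1 substitution at positions 1 to 4 of the palindrome (3 possible bases per position, highest share first), and genes with no match at up to 1 substitution. Bars are 95% Wilson intervals for counting error; the exact copy is highest at 82.4%, position 1 spans 75.9% to 50.8%, and position 4 lies at 30% and below.

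Other palindromes of the same letters had lower shares. The 11 other palindromes built from the same 4 letters per side were bound at 15.9% to 38.5% of the genes that held them and no exact DRE, with a median of 26.5% over 26 to 175 genes each. That median is close to the 24.9% of all genes without a promoter DRE, which lies inside the Wilson interval of each of the 11.

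The base beside the palindrome varied with binding. Reading outward from either end, the first base was G in 34.3% of the flanks of copies in DRE peaks. For copies within 100 bp of a start site it was G in 34.2% of flanks inside conservative peaks, against 24.3% of flanks outside them. Among these promoter copies, those with G on both sides were in a conservative peak in 88.5% of 130 cases (Wilson 81.8 to 92.9), against 67.5% of 126 copies with A on both sides (Wilson 58.9 to 75.02). The replicate shares were 73.1%, 82.3% and 80% for G on both sides and 45.2%, 51.6% and 62.7% for A on both sides, so the shares of the pairs did not overlap. This pair was chosen after the 10 combinations had been seen.

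Other promoter sequences were also compared, on both strands and outside the palindrome itself. CGATA was present in 66.9% of DRE windows against 37.5% of promoter windows without a DRE, and in 23.6% of the start-site windows. In replicates 1, 2 and 3 it was in 67.5%, 67.1% and 66.1% of DRE windows against 48.9%, 46.0% and 38.6% of windows without, so it was more frequent in 3 of 3. GAGAGAG, a repeat bound by the GAGA factor, was in 0.640% of DRE windows (4 of 625) against 5.05% of those without a DRE and 1.54% of start-site windows. Its share was 0.375%, 0.561% and 0.698% with a DRE and 4.39%, 4.23% and 5.06% without in the replicates. TATAAA, the TATA box core, was in 9.12% of DRE windows against 11.7% of those without and 15.5% of start-site windows, and lower in 3 of 3 replicates. CAGCTG, an E-box, was in 13.8% against 10.6% and 8.77% of start-site windows, and higher with a DRE than without in 3 of 3 replicates. GGTCACAC, the core of Motif 1, was in 5.28% against 3.36% and 4.67% of start-site windows, and also higher with a DRE than without in 3 of 3 replicates. TCAGTT, an initiator, was in 5.6% against 6.44% and 15.5% of start-site windows, and not lower in replicate 2. The Wilson intervals of the paired shares overlap for the TATA box, the E-box, Motif 1 and the initiator, and do not for the CGATA core and the GAGA repeat. A match is a description of the letters and shows no binding by another factor. Median GC content outside the palindrome was 41.9% in DRE windows and 43.6% in the others.

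The share of divergent promoters showed no steady difference. Among all DRE peaks, distal ones included, those with protein-coding start sites on both strands within 500 bp were counted. They made up 33.2%, 33.8% and 33.9% in replicates 1, 2 and 3. Among promoter peaks without a DRE the shares were 34.5%, 36.1% and 30.3%. The difference was -0.00600 ± 3.13 percentage points (SD, n = 3; exact sign-flip permutation test, two-sided, p = 1), with its direction split between replicates, and its sign changed with the window and the distance used. Counting promoter DRE peaks only, the difference was 1.53 percentage points over the replicates. In the conservative list the shares were 35.5% of all DRE peaks and 31.1% of promoter peaks without a DRE. By gene, 361 DRE peaks had 1 protein-coding gene within 500 bp, 219 had 2 and 11 had 3 or more.

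The X chromosome carried the DRE at more of its promoter peaks. Of its 646 promoter peaks 21.5% were DRE peaks (Wilson 18.5 to 24.8), against 13.01% to 15.7% on the other large arms, whose intervals end at 18.3 or below. The element is also denser on X, with 39.2 copies per Mb against 24.8 to 31.0. Chromosome 4 has 98.7 copies per Mb and held 2 DRE peaks among 15 promoter peaks, too few to compare.

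Genes long described as Dref targets were next compared with their sequences. The list of 17 held 12 genes with a promoter DRE, of which 9 were bound (75%, beside 82.4% of all genes with one), and 8 had a DRE peak. These are PolA1 and PolA2 (subunits of DNA polymerase alpha), PCNA, CycA (a mitotic cyclin), Myb (a cell cycle transcription factor), Cat (catalase), p53 (the damage response factor) and wts (the Warts kinase of the Hippo pathway). PolA1 was highest, with signals of 179, 241 and 370 in replicates 1, 2 and 3. It has copies at -6.5, -59.5 and -193.5 bp, the middle one shown above. PCNA, with 1 copy at -23.5 bp, had 103, 122 and 148. The gene wts, with 3 copies from -52.5 to 20.5 bp, had 83.4, 116 and 193, and CycA, with 1 copy at -7.5 bp, had 77.0, 110 and 226. Cat had 163, 148 and 231, and PolA2 had 154, 142 and 278. All of these were found in every replicate list, as were Myb (89.1, 98.0 and 125) and p53 (77.3, 45.1 and 136).

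The remaining targets split in both directions. Ras85D, mor and osa each carry a promoter DRE, at -17.5, -25.5 and -4.5 bp, and had no conservative peak. Ras85D encodes the Ras GTPase, and mor and osa encode subunits of the Brahma remodelling complex. Tbp, the TATA-binding protein gene, has a copy at -29.5 bp and was bound by a peak whose window did not hold it, with signals of 79.5, 74.4 and 139. Of the 5 targets with no exact copy, mtSSB, PolG2, E2f1 and Raf were bound and TFAM was not. For Raf the list of replicate 1 held no peak.

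The strongest of all conservative peaks has no exact DRE. It lies at mtSSB, which encodes the mitochondrial protein that coats single DNA strands. Creld, the strongest DRE peak, had signals of 608, 585 and 968 in replicates 1, 2 and 3, against 612, 707 and 963 at mtSSB. The mtSSB promoter instead holds a pair of adjoining T1C copies, at -9.5 and -17.5 bp, capitalised here on the plus strand, where each reads as the reverse complement.
mtSSB, chr3R:16205249-16205278: aataaaaTATCGATGTATCGATGatattta
Near matches at the other targets without an exact copy were T3A at E2f1, T3A and T1A at Raf and A2T at TFAM, while PolG2 had none within 100 bp. Dref itself, bound by a peak without an exact copy (145, 133 and 196), has a T1A copy at -13.5 bp.

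Of 12 genes listed as Dref and DRE cofactors 11 were bound, beside 29.7% of all protein-coding genes. These were both genes with a promoter DRE and 9 of 10 without, beside 24.9% of all genes without. Iswi, the motor of several nucleosome remodelling complexes, had a DRE peak with signals of 199, 172 and 271 and its copy at -56.5 bp. Cp190, an insulator cofactor, had a DRE peak of low signal, absent from replicate 1 and with 64.9 in replicate 2 and 69.7 in replicate 3. The peaks of XNP (331, 243 and 500), BEAF-32 (104, 162 and 248) and Caf1-55 (82.5, 94.7 and 196) held no copy in the window. Those of Trf2, pzg and Mi-2 were each missing from at least 1 replicate list, and those of Chro and ct from all 3. E(bx) had no conservative peak.

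The replication and cell cycle lists were described by how many genes carried the element and how many of those were bound. A promoter DRE was present at 13 of 41 DNA replication genes and at 6 of 25 cell cycle genes (31.7% and 24.0%), beside 8.48% of all protein-coding genes. Of those with the element 11 of 13 and 6 of 6 were bound, and of those without it 13 of 28 and 6 of 19, beside 82.4% and 24.9% over all genes. Besides the polymerase, PCNA and CycA genes, the highest DRE peaks were at Orc5, of the origin recognition complex (conservative signal 672), Cdk2 (575), BubR1 of the spindle checkpoint (523) and Rbf2, a retinoblastoma family member (357). The start site nearest to the Orc5 summit is that of Arpc1. A DRE peak was present at 8 of 41 replication genes and 5 of 25 cell cycle genes (19.5% and 20%), beside the 5.91% of all genes, and at 9, 6 and 10 and at 6, 5 and 6 of them in replicates 1, 2 and 3. Some published targets are members of these lists, which are therefore not independent of the list above.

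Protein synthesis and turnover lists are given beside all protein-coding genes, of which 8.48% had a promoter DRE and 5.91% a DRE peak, and of which 82.4% were bound with a promoter DRE and 24.9% without. Among 93 cytoplasmic ribosomal protein genes 27 had a promoter DRE (29.0%), of which 26 were bound, against 25 of 66 without. A conservative DRE peak was present at 7 (7.53%), led by RpL6 (531), RpS24 (429) and RpL41 (382), and at 12, 11 and 14 genes in replicates 1, 2 and 3, so this count differs between lists. The 73 genes of the mitochondrial ribosome included 16 with a promoter DRE, of which 15 were bound, against 30 of 57 without, and 6 had a DRE peak (8.22%), with mRpL10 at 725 and mRpL3 at 511. Of 48 proteasome genes 10 had a promoter DRE, of which 9 were bound, against 17 of 38 without. Prosbeta1 (737) and Rpt5 (621) led the 8 with a DRE peak in the conservative list, while replicates 1, 2 and 3 had a DRE peak at 2, 3 and 2 of the 48. The start site nearest to the Prosbeta1 summit is that of Rrp42, and to the Rpt5 summit that of RanBP3. Of 53 translation factor genes 14 had a promoter DRE, of which 11 were bound, against 15 of 39 without, and 9 had a DRE peak, among them eIF4E6 (737) and eIF3a (632). The start site of CG1951 is nearer to the eIF4E6 summit. All 6 aminoacyl-tRNA synthetase genes with a promoter DRE were bound, against 11 of 29 without, with ArgRS at 367 after TrpRS. The start site of CG8578 is nearer to that ArgRS summit.

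Genes of energy metabolism and of the mitochondrial genome were counted as well. Of 80 respiratory chain and ATP synthase genes 8 had a promoter DRE (10%), beside 8.48% of all protein-coding genes. Of the 8 with it 7 were bound (87.5%), against 21 of 72 without (29.2%), beside 82.4% and 24.9% over all genes. COX7A (838) and ND-19 (539) followed ND-B14.5A, and the start site nearest to the ND-19 summit is that of CG30161. Of 12 genes for the maintenance and transcription of mitochondrial DNA 3 had a promoter DRE and all 3 had a DRE peak. These were mTerf5 (578), mtTFB2 (330), where the start site of CG11722 is nearer to the summit, and mtDNA-helicase (224). The share with a DRE peak was 25%, beside 5.91% of all genes. Of the 9 without a promoter DRE 4 were bound (44.4%, beside 24.9%).

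Insulator genes, several of which are also in the list of Dref and DRE cofactors, carried the element at 6 of 15 promoters. That is 40%, beside 8.48% of all protein-coding genes. All 6 were bound, against 5 of 9 without it, beside the same 82.4% and 24.9% over all genes. The DRE peaks were at mod(mdg4) (467), at the promoter shared by Ibf1 and Ibf2 (442), at CTCF (338) and at Cp190. Over the replicates 2, 5 and 6 of the 15 genes had a DRE peak, so the count differs by replicate. In the Hippo pathway 2 of 12 genes had a promoter DRE (16.7%, beside 8.48%), 1 of them was bound, and 5 of the 10 others were bound. Its only DRE peak was at wts (8.33% of the list, beside 5.91% of all genes).

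Sensory receptor, Hox and tRNA genes rarely carried a promoter DRE, at 0.833%, 3.85% and 1.03%, beside 8.48% of all protein-coding genes. Of 120 odorant and gustatory receptor genes 1 had a promoter DRE, and none was bound in the conservative list or in any replicate list. Of 26 Hox and segmentation genes 1 had a promoter DRE and was not bound. Of the 25 others 6 were bound (24%), close to the 24.9% of all protein-coding genes without one. No DRE peak lay at any of the 26 in the conservative list, beside 5.91% of all genes, or in the 3 replicate lists. The list is short for a share of that size. Of 290 nuclear tRNA genes 3 had a promoter DRE, while 125 of the 287 without one were bound. That is 43.6%, above the 24.9% of all protein-coding genes without one. Of the 290, 127 were bound in the conservative list and 69, 80 and 145 in replicates 1, 2 and 3, so this count differs between lists. For all 13968 protein-coding genes the replicate counts were 2941, 3111 and 4000. A DRE peak lay at tRNA:Gly-TCC-1-2 (780), and another was shared by tRNA:Trp-CCA-2-2 and tRNA:Gly-GCC-1-9 (555). Genes of 1 tRNA family are near copies of each other, and how reads were shared between them is not stated.

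Distal DRE peaks were few and were found in most replicate lists. The 31 without a start site within 500 bp lay in intergenic sequence (18), introns (8) and 3′ untranslated regions (5). Replicates 1, 2 and 3 held 24, 27 and 28 of them and 20 were in all 3, against 167, 187 and 340 of 583 distal peaks without a DRE and 106 in all 3. Their median conservative signal was 269.9, against 164 for distal peaks without a DRE. The strongest lay 771 bp upstream of the nearest start site of ey, the Pax6 gene of eye development, on chromosome 4, with signals of 172, 145 and 305. The next lay in an intron near CG42709 (147, 180 and 298) and in one near woc (176, 108 and 294). The woc summit is 548 bp from a start site and so just beyond the promoter limit. The other named distal peaks were near Tudor-SN, Fem-1, SrpRbeta, for (a cGMP-dependent protein kinase gene) and CG34132, with conservative signals from 459 to 323.

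The DRE peaks found in no replicate list were weak. The highest of the 12 had conservative signals of 219 at Rtel1 (a DNA helicase gene), 203 at mud (a spindle orientation gene), 189 at Rbm13, 184 at Rpn11 (the deubiquitinase of the proteasome lid) and 159 at Tmf, below the 282 that marks the lower quartile of DRE peaks. Replicate numbers mark separate biological samples per the labels, and each spread given here covers those 3 libraries of a single strain.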

How the data were processed

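ChIP-seq peak lists of 3 biological replicates of CG34224-eGFP embryos were used as deposited, with coordinates on dm6 per the labels. The score of a peak, at most 1000 and at least 830 in the conservative list, was deposited by the authors in lists thresholded by irreproducible discovery rate (IDR), and it was not used in a comparison. The signal of each peak, deposited by the authors, is their peak caller's value on a scale that is not stated. Aligner, peak caller and IDR version: not given in the sources used here. Per the deposited descriptions the conservative list comes from the alignments of every library. No read counts were used, so depth is unknown.

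Unplaced scaffolds were dropped, which kept 4393 of 4395 conservative peaks. Exact DRE copies were searched in the RefSeq Release 6 genome, where the palindrome reads the same on both strands. A copy had to lie wholly inside a window, and its position is that of its centre. Start sites were those of all genes but transposable elements in Ensembl release 115 (BDGP6.54). Summits up to 500 bp from any of these made a promoter peak. A shared peak overlapped its partner over 50% or more of the shorter. Shares have 95% Wilson intervals, and peaks and genes are not replicates. Each comparison was made within a replicate and tested by an exact sign-flip permutation over the 3 differences (8 patterns, smallest two-sided p 0.25). Python 3.11.15, numpy 2.4.6 and scipy 1.17.1 were used, and the search, overlap and test steps were tested on simulated data.

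The members, the 16 gene lists and the tests were chosen with earlier results of these data known. The classes by substitution, flanking base, distance and signal were added after the data were seen. The genes named are the 20 strongest DRE peaks, up to 4 of the strongest per list and the 6 with the most copies. Added to these are the 8 strongest distal ones, every gene of the 2 Dref lists and the 5 strongest found in no replicate list. A further 3 lie on each side of the window edge. The last are 4 of the 9 unbound genes with 2 promoter copies, taken in order of symbol. Ties in copies per peak or in distance to the edge were broken by signal. A listed gene is given by its strongest DRE peak where it has one, otherwise by its strongest peak. That peak lies within 500 bp of a start site of the gene, though the start site of another gene can be nearer. The symbol RpA-70 matched no gene. Columns of the ranked series lists that name no sample were not used. Alternatives changed the window, the distances, the overlap rule, the list, the signal threshold and the replicates included.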

Additional observations from a re-analysis of the deposited data

How the results depend on the processing

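The differences in signal percentile (11 alternatives), recovery (13) and bound share (8) kept their direction under every alternative tried, with ranges of 2.37 to 30.4, 1.49 to 30.2 and 47.3 to 58.3 points. The lowest values came with the upper 50% by signal (2.37 for signal, 47.3 for bound share) and with ranked lists (1.49 for recovery). Leaving out 1 replicate gave 20.6 to 24.3, 20.5 to 26.7 and 55.7 to 57.2 points. On the log2 scale the ratio of median signals was 0.56. The divergent share difference, -0.00600 points, changed sign with a window of 100 bp on either side of the summit (4.58), start sites within 1000 bp (1.45), promoter DRE peaks only (1.53), comparison peaks with no match at up to 1 mismatch (1.05) and divergent start sites within 1000 bp (1.75), and ranged from -1.79 to 1.14 when 1 replicate was left out; the cause was not tested. The number of DRE peaks was 345 with a window of 25 bp on either side and 1031 over the whole peak, which follows from the length searched. The median position was -29.5 bp with start sites within 250 bp and in replicate 1, and -27.5 bp in replicate 2. The bound share of genes with a promoter DRE was 86.4% for copies within 50 bp, 79.9% within 250 bp, 79.6% in the shortest of the other 3 series lists, 70.8% in replicate 1 and 74.6% in replicate 2. The labels give 1 group of samples and no other to pair with it. The only pairing was therefore within a replicate, where peaks or genes with and without the DRE were compared. With 3 replicates no test can pass 0.05, and without read depth a missing peak cannot be told from one too weak to be listed.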
